A study of Homo sapiens
Mus musculus with 2 samples.

Results

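Tpd52, Nes and Retreg1 were followed across the mouse cells of a pair of Drop-seq libraries, as 3 of the 29259 genes listed in either table, of which 14740 were mouse genes. They were chosen by identifier (mm10_ENSMUSG00000027506, mm10_ENSMUSG00000004891 and mm10_ENSMUSG00000022270) because earlier work on these tables showed each of them almost wholly in 1 of the 2 mouse cell types. No numerical threshold was part of that choice. The contrast between the mouse cell types is therefore what selected the genes, and it is given here as a description, without a test.

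Both libraries came from the same kind of sample, in which Jurkat, TALL104, EL4 and IVA12 cells were mixed in equal numbers. The sample descriptions name no treatment. Of these established lines, EL4 (T cells) and IVA12 (B cells) are of mouse origin, and Jurkat and TALL104 are T cells of human origin. The suspension was loaded at 150 cells per µl for 1 library and at 300 cells per µl for the other, with 1 library and no replicate at each concentration. Each mouse cell type was thus represented by 1 cultured line, and the concentration and the library cannot be told apart.

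Tpd52 encodes tumour protein D52, a coiled-coil protein linked to vesicle trafficking and secretion that is abundant in cells of the B lineage that secrete antibody. Nes encodes nestin, an intermediate filament protein best known from neural progenitor cells, where it assembles together with vimentin. Retreg1, also called Fam134b, encodes a receptor in the membrane of the endoplasmic reticulum that delivers pieces of this organelle to autophagosomes. Cd3e, a signalling chain of the T cell receptor complex, and Mzb1, a chaperone partner of the endoplasmic reticulum in B and plasma cells, served as the reference genes for the T and plasma cell sides.

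A barcode is the sequence tag shared by the transcripts of 1 droplet, and a UMI (unique molecular identifier) marks 1 captured molecule. Barcodes with at least 1000 UMIs, of which at least 90% were mouse, were taken as mouse cells. There were 85 such barcodes (median 12164 UMIs) at 150 cells per µl and 685 (median 7211 UMIs) at 300. Only 1 barcode sequence occurred in both tables, and it was a mouse barcode in neither.

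The mouse barcodes were divided by the sign of their first principal component, computed without Cd3e, Mzb1, Tpd52, Nes and Retreg1. The side with more Cd3e is called the Cd3e group and the side with more Mzb1 the Mzb1 group. The Cd3e group held 49 barcodes (median 11256 UMIs) at 150 cells per µl and 367 (median 7768 UMIs) at 300 cells per µl. The Mzb1 group held 36 barcodes (median 13514 UMIs) and 318 barcodes (median 5726 UMIs). The division was uncertain for shallow barcodes, as 41 of the 770 lay within 2 units of 0 on this component, with a median of 1488 UMIs. With barcodes from 500 UMIs included, the component separated deep from shallow barcodes instead. Tpd52 was then lower on the shallow side in both libraries, with overlapping intervals.

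Both reference genes marked the sides of this division. Levels are given in CPM, the UMIs of a gene per 1000000 mouse UMIs of the group. Cd3e had 28 UMIs (46.8 CPM) and 207 UMIs (64.7 CPM) in the Cd3e group of the libraries at 150 and 300 cells per µl, against 0 and 5 UMIs in the Mzb1 group. Mzb1 had 652 UMIs (1413 CPM) and 3545 UMIs (1531 CPM) in the Mzb1 group, and 5 UMIs (8.35 CPM) and 77 UMIs (24.1 CPM) in the Cd3e group. As the groups were checked by 1 marker each, they are not named after a cell type or a line.

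All Tpd52 UMIs of the mouse groups lay in the Mzb1 group, in both libraries. At 150 cells per µl it had 28 UMIs in the Mzb1 group, a level of 60.7 CPM (95% interval 40.3 to 87.7), and 0 UMIs in the Cd3e group. In the library at 300 cells per µl it had 130 UMIs in the Mzb1 group, a level of 56.1 CPM (46.9 to 66.7), and again 0 UMIs in the Cd3e group. With the group at 0 set to a floor of 3 UMIs, the level in the Mzb1 group was at least 12.1-fold and at least 59.9-fold higher. All intervals of levels are exact Poisson, those of shares are exact binomial (Clopper-Pearson), and both cover counting error only.

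A Tpd52 UMI was present in 16 of 36 Mzb1 group barcodes (44.4%, 27.9 to 61.9) at 150 cells per µl. The corresponding number was 88 of 318 (27.7%, 22.8 to 32.9) at 300 cells per µl, where the barcodes were shallower. In the Cd3e group it was seen in 0 of 49 and 0 of 367 barcodes, where exact binomial intervals reach 7.25% and 1.00% and the limit of 3 counts of the total is 6.12% and 0.817%. No barcode held more than 4 Tpd52 UMIs in either library.

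Nes was also found on the Mzb1 side. It had 34 UMIs in the Mzb1 group at 150 cells per µl, a level of 73.7 CPM (51.0 to 103), and 0 UMIs in the Cd3e group, so that the Mzb1 group was at least 14.7-fold higher. The other library had 218 UMIs (94.1 CPM, 82.1 to 108) in the Mzb1 group and 1 UMI (0.312 CPM) in the Cd3e group, a ratio of 301 (53.5 to 11955). Its width comes from the single UMI in the denominator.

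Nes was detected in 17 of 36 Mzb1 group barcodes (47.2%, 30.4 to 64.5) and in 128 of 318 (40.3%, 34.8 to 45.9). In the Cd3e group it was detected in 0 of 49 and in 1 of 367 barcodes (0.272%). The highest number of Nes UMIs in a barcode was 3 at 150 and 7 at 300 cells per µl.

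Retreg1 had the opposite distribution and was found in the Cd3e group. At 150 cells per µl it had 32 UMIs in the Cd3e group, a level of 53.4 CPM (36.6 to 75.4), and 0 UMIs in the Mzb1 group, at least 8.22-fold lower. The other library had 196 UMIs (61.2 CPM, 53.0 to 70.4) in the Cd3e group and 4 UMIs (1.73 CPM, 0.471 to 4.42) in the Mzb1 group, a ratio of 35.5 (13.6 to 131).

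A Retreg1 UMI was present in 22 of 49 Cd3e group barcodes (44.9%, 30.7 to 59.8) and in 138 of 367 (37.6%, 32.6 to 42.8). In the Mzb1 group it was present in 0 of 36 barcodes (exact interval up to 9.74%, limit of 3 counts 8.33%) and in 4 of 318 (1.26%, 0.344 to 3.19). The share of the summed CPM of both groups that lay in the higher group at 300 cells per µl was 100% for Tpd52, 99.7% for Nes and 97.3% for Retreg1.

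**Figure D1:**
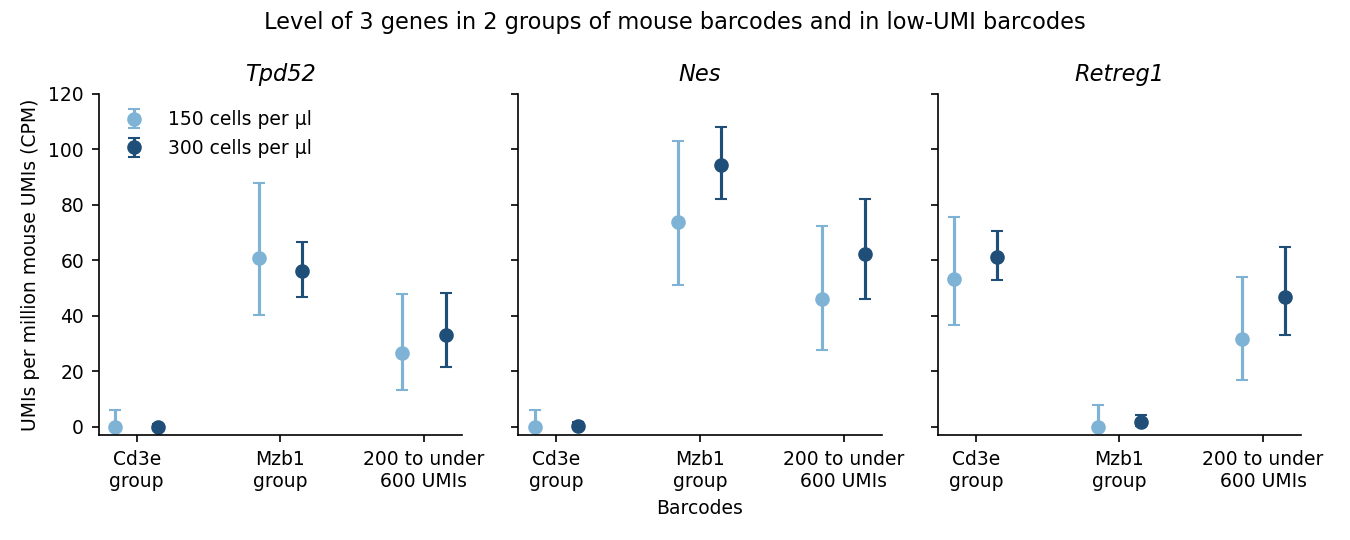
Levels of Tpd52, Nes and Retreg1 in the Cd3e group, the Mzb1 group and the barcodes of 200 to under 600 UMIs of each library, in CPM of mouse UMIs (points) with exact Poisson 95% intervals (bars). Tpd52 and Nes lie at 56.1 to 94.1 CPM in the Mzb1 group and Retreg1 at 53.4 and 61.2 CPM in the Cd3e group, with 0 to 4 UMIs in the other group, and all 3 are present in the shallow barcodes at 26.8 to 62.2 CPM.

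All 3 genes differed at least 4-fold between the groups in both libraries, Tpd52 and Nes higher in the Mzb1 group and Retreg1 higher in the Cd3e group. Of the 9896 mouse genes with at least 20 UMIs, 416 (4.20%) were at least 4-fold higher in the Mzb1 group and 389 (3.93%) in the Cd3e group in both libraries. Because the genes were selected for this contrast, nothing can be read from their count. At least 95% of the CPM lay in the Mzb1 group in both libraries for 453 genes (4.58%) and in the Cd3e group for 317 genes (3.20%), a rule chosen after the data were seen. This rule used no floor of 3 UMIs, so it also took in genes of few UMIs with 0 in a group, whose fold is not shown to reach 4.

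The same pattern was seen when mouse barcodes were sorted by the reference genes themselves instead of the component. In the library at 300 cells per µl, 125 barcodes held Cd3e and no Mzb1, 310 held Mzb1 and no Cd3e, 32 held both and 218 held neither. Tpd52 was present in 86 (27.7%) and Nes in 120 (38.7%) of the barcodes with Mzb1 only, against 0 and 1 of the barcodes with Cd3e only. Retreg1 was present in 54 of the barcodes with Cd3e only (43.2%, 34.4 to 52.4) and in 12 of those with Mzb1 only (3.87%, 2.02 to 6.66).

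At 150 cells per µl, 20 barcodes held Cd3e only, 39 held Mzb1 only, 1 held both and 25 held neither. Retreg1 was present in 13 of the 20 (65.0%) and in 0 of the 39. Tpd52 and Nes were present in 16 (41.0%) and 17 (43.6%) of the 39 and in 0 of the 20.

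Barcodes with Mzb1 and Retreg1 held little Mzb1. Of the 12 barcodes at 300 cells per µl with Retreg1 and Mzb1 but no Cd3e, 11 held 1 Mzb1 UMI and 9 fell in the Cd3e group. The 154 barcodes of the same class with Tpd52 or Nes had a median of 14 Mzb1 UMIs, and 0 of them fell in the Cd3e group. Among the 32 barcodes with both reference genes, Retreg1 was present in 13, all in the Cd3e group, and 11 of these held 1 Mzb1 UMI. The 3 barcodes of that class with Tpd52 or Nes held 14 to 52 Mzb1 UMIs and lay in the Mzb1 group. A lone Mzb1 UMI did not set a group apart, as Mzb1 was detected in 13.9% of Cd3e group barcodes and in 11.9% of 318 human barcodes (median 3714 UMIs).

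Retreg1 was also common in barcodes with neither reference gene. It was present in 63 of 218 (28.9%) at 300 cells per µl and in 9 of 25 (18.0 to 57.5%) at 150 cells per µl. Most barcodes of this class were in the Cd3e group, 191 of the 218 and 24 of the 25. Tpd52 and Nes were present in 1 and 5 of the 218 and in 0 of the 25. Cd3e itself was missed in most barcodes of its own group, with a UMI in 42.9% and 42.0% of them, whereas Mzb1 was detected in 97.2% and 91.5% of its group.

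**Figure D2:**
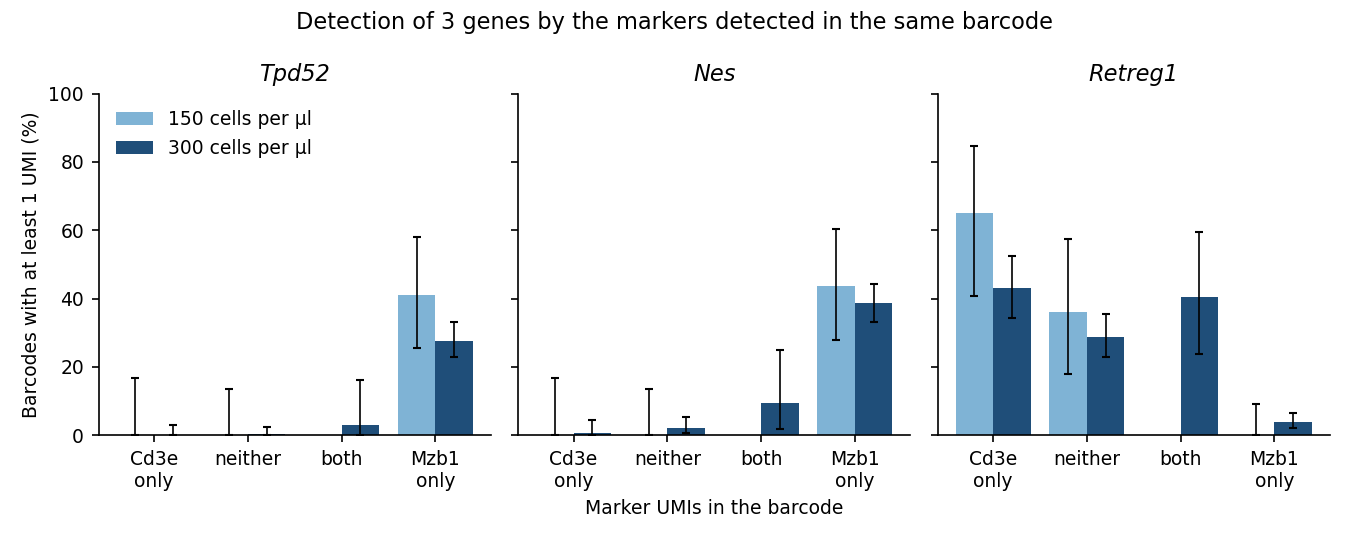
Share of mouse barcodes with at least 1 UMI of Tpd52, Nes or Retreg1, in percent with exact binomial 95% intervals, by detection of Cd3e and Mzb1 in each library. Retreg1 was present in 43.2% of barcodes with Cd3e only and 3.87% of those with Mzb1 only at 300 cells per µl, and Tpd52 and Nes in 27.7% and 38.7% of those with Mzb1 only. The class with both at 150 cells per µl held 1 barcode and is not drawn.

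Within single barcodes, Retreg1 was almost never seen together with Tpd52 or Nes. Of 770 mouse barcodes, 187 held Tpd52 or Nes, 164 held Retreg1 and 1 held both kinds. Each gene was chosen for lying almost wholly in 1 mouse cell type, so little overlap follows from that choice. At least 1 of the 3 genes was present in 350 barcodes (45.5%), 52.9% at 150 and 44.5% at 300 cells per µl. In the division used here, 186 of the 187 barcodes were in the Mzb1 group and 160 of the 164 were in the Cd3e group.

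The 5 barcodes that went against their group were all from the library at 300 cells per µl. The Cd3e group barcode with Nes had 8507 UMIs in total, with 1 Nes UMI and 1 Cd3e UMI. The Mzb1 group barcodes with Retreg1 had 2995, 1375, 1090 and 1072 UMIs in total and 1 Retreg1 UMI each, and the last of them also held 1 Nes UMI. These 4 were shallower than the median Mzb1 group barcode (5726 UMIs), and lay at 5.84, 1.25, 10.99 and 11.16 on the first component. A minimum of 5000 UMIs leaves all 4 out, so the level of 0 CPM for Retreg1 in this group under that minimum says nothing further about them.

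**Figure D3:**
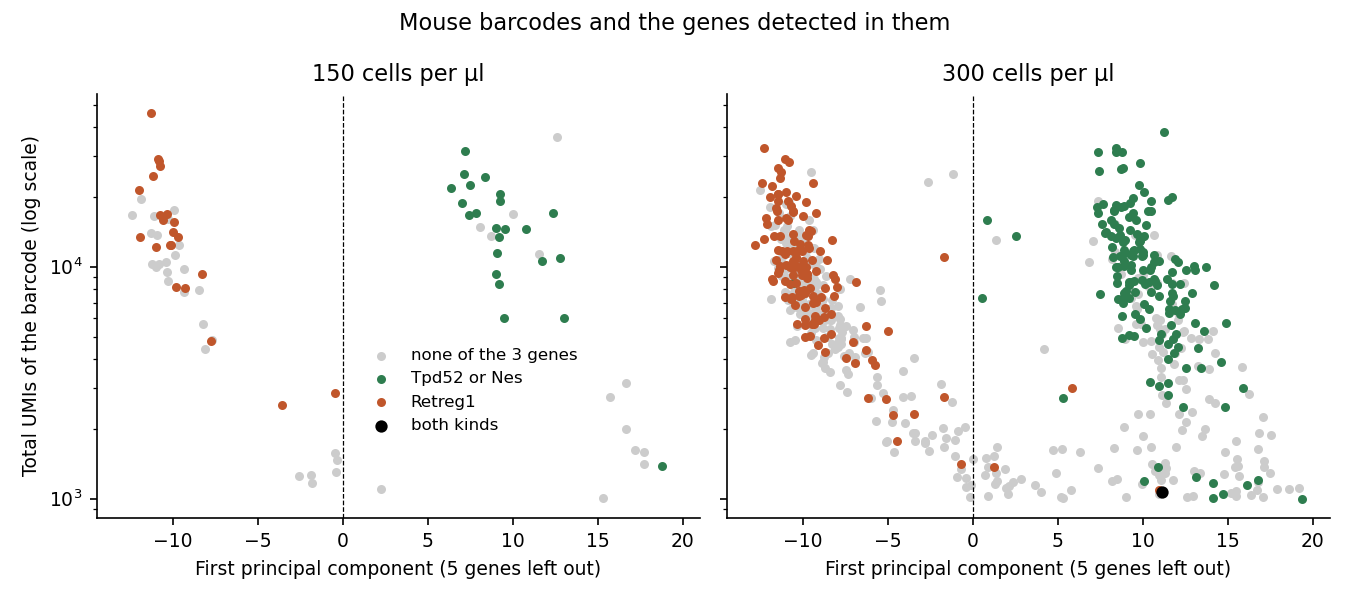
First principal component of each mouse barcode (computed without the 5 genes) against its total UMIs on a log scale, coloured by detection of Tpd52 or Nes and of Retreg1, with a dashed line at 0. Of the barcodes with Retreg1, 160 of 164 lie on the negative side (Cd3e group), and of those with Tpd52 or Nes, 186 of 187 lie on the positive side (Mzb1 group).

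At 300 cells per µl, detection of each gene was more frequent in deeper barcodes of its group. In the Mzb1 group at 300 cells per µl, Nes was present in 10.5% of 86 barcodes of 1000 to under 2000 UMIs, 20.0% of 55 barcodes of 2000 to under 5000 UMIs, 52.2% of 90 barcodes of 5000 to under 10000 UMIs and 70.1% of 87 deeper barcodes. Its level in these bins was 83.1, 61.5, 101 and 96.6 CPM. Tpd52 was present in 1.16%, 20.0%, 35.6% and 50.6% of the same barcodes. Its level was 9.23 CPM (0.234 to 51.4, from 1 UMI) in the shallowest bin and 61.5, 62.4 and 56.1 CPM in the others.

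Retreg1 in the Cd3e group showed the same relation to depth. It was present in 8.70% of 23, 21.2% of 66, 35.6% of 160 and 55.1% of 118 barcodes in the same depth bins, at 55.3, 68.3, 59.0 and 61.9 CPM. In the Mzb1 group it had 3, 1, 0 and 0 UMIs across the bins, at 27.7 CPM (5.71 to 80.9) in the shallowest bin, 5.13 CPM (0.130 to 28.6) in the next and 0 in the 2 deepest bins. Tpd52 had 0 UMIs in every depth bin of the Cd3e group. The library at 150 cells per µl had 3 to 29 barcodes per bin and no such steady order. From the shallowest to the deepest bin, Retreg1 was present in 0 of 6, 3 of 5, 3 of 9 and 16 of 29 Cd3e group barcodes. Nes was present in 1 of 6, 0 of 3, 3 of 4 and 13 of 23 Mzb1 group barcodes, and Tpd52 in 0, 0, 2 and 14 of the same barcodes.

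**Figure D4:**
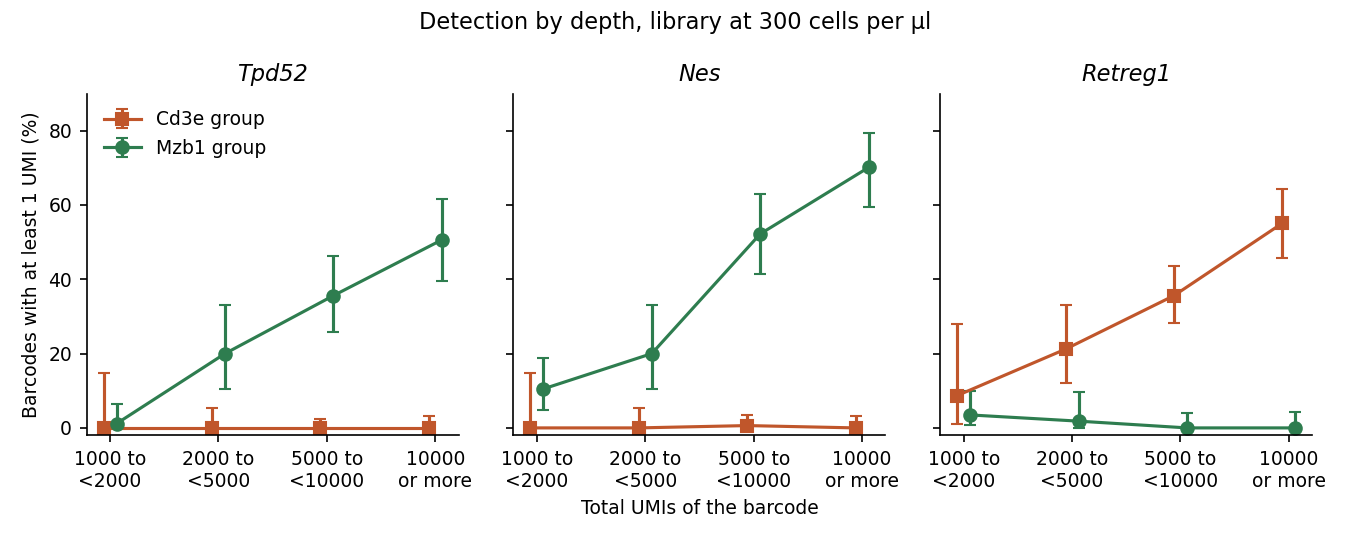
Share of barcodes with at least 1 UMI, in percent with exact binomial 95% intervals, against the total UMIs of the barcode in the library at 300 cells per µl. From the shallowest to the deepest bin the share goes from 1.16% to 50.6% for Tpd52 and from 10.5% to 70.1% for Nes in the Mzb1 group, and from 8.70% to 55.1% for Retreg1 in the Cd3e group.

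Taken over all depths, the shares in the higher group were near those that its mean level and the depth of its barcodes would give. The mean level came from the same barcodes, so only the spread over barcodes is compared. If UMIs were spread over barcodes in proportion to depth, Tpd52 would be present in 47.6% and 29.8% of Mzb1 group barcodes at 150 and 300 cells per µl, where 44.4% and 27.7% were observed. The same calculation gave 53.0% and 42.1% for Nes, where 47.2% and 40.3% were observed. For Retreg1 in the Cd3e group it gave 43.2% and 38.6%, where 44.9% and 37.6% were observed. Each of these values lay inside the binomial interval of its observed share. In barcodes of 1000 to under 2000 UMIs at 300 cells per µl, Tpd52 was at 9.23 CPM (0.234 to 51.4, from 1 UMI). That interval lay below the level of the whole group (56.1 CPM), and the reason was not tested. A gene absent from most barcodes of its group at this depth is thus not shown to be absent from those cells.

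After each barcode was thinned to 2000 UMIs, the libraries had similar shares with wide intervals. Tpd52 was present in 3 of 30 Mzb1 group barcodes (interval 2.11 to 26.5%) at 150 cells per µl and in 26 of 232 (11.2%, 7.45 to 16.0) at 300 cells per µl. Nes was present in 13.3% (3.76 to 30.7) and 17.2% (12.6 to 22.7) of these barcodes. Retreg1 was present in 5 of 43 (11.6%, 3.89 to 25.1) and 43 of 344 (12.5%, 9.20 to 16.5) Cd3e group barcodes. Thinning left out 6 and 86 shallower barcodes of the Mzb1 group and 6 and 23 of the Cd3e group.

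Between the concentrations, the level of each gene in its higher group did not differ beyond counting error. The log2 ratio of CPM at 300 over 150 cells per µl was -0.11 for Tpd52 (-0.71 to 0.53, exact conditional binomial interval), 0.35 for Nes (-0.17 to 0.92) and 0.20 for Retreg1 (-0.35 to 0.78). All 3 intervals included 0, with bounds as far out as -0.71 and 0.92. The middle 95% of genes with a similar number of UMIs in the same group ran from -0.76 to 1.30 around a median of 0.20 for Tpd52, from -0.74 to 1.09 around 0.16 for Nes and from -0.68 to 1.08 around 0.17 for Retreg1. With 1 library at each concentration no test was possible.

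Tpd52 and Nes were found together in 63 barcodes, 10 at 150 and 53 at 300 cells per µl. In the Mzb1 group at 300 cells per µl, Nes was present in 60.2% (49.2 to 70.5) of the 88 barcodes with Tpd52 and in 32.6% (26.6 to 39.1) of the 230 without it. The barcodes with Tpd52 were deeper, with a median of 9863 against 4228 UMIs. Among barcodes of at least 5000 UMIs the shares were 65.8% (54.0 to 76.3) of 76 and 57.4% (47.2 to 67.2) of 101, with overlapping intervals. The part of depth in the remaining difference was not tested.

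Retreg1 and Cd3e were similarly related to depth. In the Cd3e group at 300 cells per µl, Cd3e was present in 48.6% (40.0 to 57.2) of the 138 barcodes with Retreg1 and in 87 of the 229 without it (31.7 to 44.6%). Among barcodes of at least 5000 UMIs the shares were 50.8% and 48.7%. At 150 cells per µl they were 68.4% (43.4 to 87.4) and 42.1% (20.3 to 66.5) of 19 barcodes each.

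UMIs of the 3 genes also occurred in barcodes too shallow to be taken as cells. In barcodes of 200 to under 600 UMIs, Tpd52 was at 26.8 CPM (13.4 to 47.9, 11 UMIs) at 150 and 33.0 CPM (21.5 to 48.3, 26 UMIs) at 300 cells per µl, against 26.4 and 23.6 CPM over all mouse barcodes. Retreg1 was at 31.6 CPM (16.8 to 54.1) and 46.9 CPM (33.0 to 64.7), against 30.2 and 36.3 CPM. Genes of both mouse groups were thus present in the shallow barcodes, and the level over all mouse barcodes lay inside each of these intervals.

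For Nes the difference from all mouse barcodes was larger. It was at 46.2 CPM (27.8 to 72.2) and 62.2 CPM (46.0 to 82.2) in the shallow barcodes, against 32.1 CPM (22.2 to 44.8) and 39.7 CPM (34.6 to 45.3) over all mouse barcodes. Why it stood higher there was not tested. Per 100 Mzb1 UMIs there were 11.5 (6.76 to 18.6) and 9.74 (7.11 to 13.1) Nes UMIs in the shallow barcodes, against 5.21 (3.58 to 7.36) and 6.15 (5.34 to 7.05) in the Mzb1 group. At 300 cells per µl these intervals did not overlap, whereas those of Tpd52 per 100 Mzb1 UMIs did, at 5.17 (3.34 to 7.66) and 3.67 (3.05 to 4.37). Set directly against Nes in that library, Tpd52 had 53.1 UMIs per 100 Nes UMIs (31.7 to 87.1) in the shallow barcodes. In the Mzb1 group it had 59.6 (47.6 to 74.4), so a difference between Nes and Tpd52 is not shown.

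UMIs of a gene in the reverse group can come from free RNA, from doublets or from barcodes placed on the wrong side, and these were not told apart. Of the 77 Mzb1 UMIs in the Cd3e group at 300 cells per µl, 13 and 7 were in 2 deep barcodes (23232 and 25083 UMIs) near 0 on the component, which held none of the 3 genes. Per 100 Mzb1 UMIs in the Cd3e group at 300 cells per µl there were 0 Tpd52 UMIs (0 to 4.91) and 1.30 Nes UMIs (0.0325 to 7.45), intervals that include the ratios in the Mzb1 group. In barcodes of 200 to under 600 UMIs the ratios were 5.17 (3.34 to 7.66) and 9.74 (7.11 to 13.1). Those values lay above the Cd3e group intervals, though the intervals overlapped. Per 100 Cd3e UMIs in the Mzb1 group there were 80.0 Retreg1 UMIs (15.9 to 372), against 94.7 (77.5 to 116) in the Cd3e group. These ratios pool barcodes and have wide intervals, so they do not show whether the UMIs lay together. The 4 Retreg1 UMIs of the Mzb1 group lay in barcodes of 1072 to 2995 UMIs without Cd3e. Its 5 Cd3e UMIs lay in barcodes of at least 5000 UMIs. The Cd3e group barcode with Nes held no Mzb1. In human barcodes Tpd52 had 1 and 0 UMIs, Nes 0 and 2, and Retreg1 0 and 1, at 150 and 300 cells per µl.

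Genes with the most similar pattern were ranked by the distance of log2(CPM + 5) over the 4 sums of 2 groups in 2 libraries, among 9896 genes. The nearest to Tpd52 was ENSMUSG00000003051 (distance 0.16), with 27 and 118 UMIs in the Mzb1 group and 0 and 1 in the Cd3e group. The nearest to Retreg1 was ENSMUSG00000025885 (distance 0.11), with 31 and 203 UMIs in the Cd3e group and 0 and 3 in the Mzb1 group. Cd3e itself ranked 4 among the neighbours of Retreg1 (distance 0.21), whereas Nes ranked 50 among those of Tpd52 (distance 0.75). The distance counts the level as well as the group that holds the gene. In the Mzb1 group, Nes was at 73.7 and 94.1 CPM and Tpd52 at 60.7 and 56.1 CPM.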

How the data were processed

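UMI counts of each library were deposited by the authors as a table of genes by barcodes, with Ensembl identifiers carrying a species prefix. The submitters' processing notes name STAR 2.4.2a, a Cell Ranger 1.2.0 reference, hg19 and mm10. The labels do not say whether the deposited counts came from downsampled reads, which would lower UMIs per barcode. The tables held 2000 barcodes with 2398956 UMIs and 4000 barcodes with 8707135 UMIs.

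Mouse barcodes had at least 1000 UMIs and at least 90% mouse UMIs. They were scaled to 10000 UMIs and log-transformed, the 2000 most variable genes seen in at least 10 cells were centred but not scaled to unit variance (a choice made after the data were seen), and the sign of the first component gave the groups. No doublet caller was run, so doublets of both mouse lines remain. The split was run on cells simulated from the profiles of these same groups. The fold calls were run on cells simulated from the Cd3e group profile alone, with randomly chosen genes raised or lowered in part of the cells. Free RNA, doublets and barcodes below 1000 UMIs were not simulated, so their effect on the split was not tested. Python 3.11.15, numpy 2.4.6, scipy 1.17.1 and scikit-learn 1.9.0 were used, with scaling factors from edgeR 4.0.16 and DESeq2 1.42.0 (R 4.3.3).

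The genes and lists were chosen with earlier results of these data known. Named were the 3 genes, Cd3e, Mzb1 and the nearest of the 5 closest genes in pattern. Marker and gene family lists, and the human orthologues, were not used here, because 0 of 29259 identifiers matched the human gene table at hand (GRCh38.p14). Alternatives were other scalings, weights, UMI and mouse-share minimums, groupings, fold limits and thinning depths.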

Additional observations from a re-analysis of the deposited data

Results flagged for a closer look

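Barcodes of 600 to under 1000 UMIs were in no group or marker class of the report, though mouse barcodes among them enter the alternative with at least 500 UMIs. UMIs exceeding 3, the limit that a count of 0 allows, were seen for all 3 genes at 300 cells per µl and for Nes at 150. Nes had 5 UMIs there at 150 cells per µl (82.9 CPM) and 26 UMIs at 300 cells per µl (53.0 CPM). Tpd52 had 11 UMIs (22.4 CPM) and Retreg1 had 17 UMIs (34.6 CPM) at 300 cells per µl. Tpd52 and Retreg1 had 2 UMIs each in the other library, which is not above that limit.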

How the results depend on the processing

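With a minimum of 500 UMIs the first component separated deep from shallow barcodes (group medians 8926 and 828 UMIs), and 269 of 770 barcodes changed side. On the shallow side, still called the Mzb1 group, Tpd52 was then at 0 CPM (0 to 94.6) and 18.1 CPM (7.83 to 35.8) at 150 and 300 cells per µl. The deep side had 27.1 CPM (18.0 to 39.2) and 24.1 CPM (20.0 to 28.7). Nes was at 25.7 CPM (0.649 to 143) against 32.0 CPM (22.0 to 44.9) at 150 and 59.0 against 39.0 CPM at 300. Retreg1 was at 51.3 CPM (6.21 to 185) against 29.1 CPM (19.6 to 41.5) at 150 and 29.5 against 36.1 CPM at 300. The intervals of both sides overlapped for each gene in both libraries, so neither the contrast nor a reversed one is shown. With barcodes weighted equally Tpd52 was at 46.3 CPM at 300 cells per µl. Retreg1 was then at 9.77 CPM in the Mzb1 group of that library, above its main interval, and at 62.7 CPM in the Cd3e group. Among barcodes of at least 2000 UMIs with Mzb1 only at 300 cells per µl, Tpd52 was present in 34.4% and Nes in 46.2%. With at least 2 UMIs required of the reference gene, Retreg1 was present in 1 of 4 barcodes with Cd3e only at 150 cells per µl (25%, 0.631 to 80.6). At a 2-fold limit 1188 genes were higher in the Mzb1 group and 1054 in the Cd3e group. Thinned to 1000 UMIs, Tpd52 was present in 4.09%, Nes in 9.43% and Retreg1 in 8.45% of barcodes at 300 cells per µl, and Nes in 2.78% at 150 cells per µl. All 3 genes passed the fold limit in each fold setting tried. They were chosen for this contrast and every fold setting used the same groups, so their passing is no check of it. Levels in the lower group rest on 0 to 4 UMIs, and depth limits what can be said of them. Retreg1 in the Mzb1 group at 300 cells per µl ranged from 0 CPM (at least 95% mouse UMIs, or at least 5000 UMIs) to 29.5 CPM (at least 500 UMIs). With genes scaled to unit variance, 29 of 770 barcodes changed side (median 1608 UMIs). Nes in the Cd3e group was then at 1.56 CPM (0.507 to 3.64) at 300 cells per µl. Retreg1 in the Mzb1 group was at 2.12 CPM (0.0536 to 11.8) at 150 and 3.46 CPM (1.49 to 6.82) at 300. Settings chosen after the data were seen were unit-variance scaling, at least 5000 UMIs and the 95% of CPM rule. No paired analysis was possible because each concentration had 1 library and no test was made.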

Other observations

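At 300 cells per µl, 8 mouse barcodes of 5260 to 25083 UMIs lay within 5 units of 0 on the first component, between the groups, and at 150 cells per µl there were 0. Tpd52 was present in 1 of the 8, Nes in 3, Retreg1 in 2, Mzb1 in 6 and Cd3e in 1, and 0 of them held Retreg1 together with Tpd52 or Nes.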
